A study of Rattus norvegicus with 6 samples.

Results

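This report describes the genes of the ubiquitin-proteasome pathway in the lateral ventricular choroid plexus of the rat, at embryonic day 15 (E15) and in the adult. Members were all genes whose symbol, in the table of age-dependent genes deposited with the counts, began with a proteasome subunit, assembly factor, E1, E2, cullin, F-box, Trim, Skp, Nedd4, Nedd8, deubiquitinase, SUMO or signalosome prefix. This gave 128 of the 10093 named genes of that table, out of 29479 genes counted. They were 7 proteasome subunits, 120 genes of ubiquitin and ubiquitin-like conjugation or removal, and *Psmc3ip*, a recombination factor that shares only the first letters of a subunit name. The symbols exist only for genes that the study had called different between the 2 ages. The members were therefore chosen from the same contrast that is described here, and their differences between the ages are a description. A fit over all genes sorts them into called and not called, but these calls are not evidence about genes that were chosen in this contrast.

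Both groups were untreated Sprague-Dawley rats, E15 embryos and adults of 6 weeks. Each of the 3 libraries per age came from the choroid plexuses of 10 animals pooled before RNA extraction, so the spread between pools is not that between single animals. Whole plexus was used, with stroma, vessels and blood cells beside the epithelium. In such bulk RNA, fewer cells of a type and less RNA per cell cannot be told apart.

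Ubiquitin is a small protein that is attached to other proteins through a relay of an activating enzyme (E1), a conjugating enzyme (E2) and a ligase (E3) that selects the substrate, and it is removed again by deubiquitinases. Chains of ubiquitin direct many proteins to the proteasome, a barrel-shaped protease (the 20S core) capped by a regulatory particle (19S) that unfolds and deubiquitinates substrates. Related modifiers, among them SUMO, NEDD8, ISG15 and UFM1, have E1, E2 and protease enzymes of their own. The choroid plexus epithelium divides and differentiates before birth and secretes cerebrospinal fluid throughout life.

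The libraries held between 17875089 and 19204440 gene counts. Values below are normalized counts, that is, counts scaled by TMM factors to a library of 19267327 counts. They are not corrected for transcript length, so levels were not compared between genes. Fold changes are E15 over adult on the log2 scale from edgeR's quasi-likelihood fit to all 16643 genes with more than 10 counts in total, ± standard error, with 3 pools per age. A gene is termed called where the Benjamini-Hochberg adjusted p of this fit was under 0.05. The adult plexus libraries had factors of 0.735 to 0.773 and the E15 libraries 1.32 to 1.33. Scaling by total counts alone moved the median over all genes tested from 0.14 to 0.94, and sign changes under that scaling are given beside the genes they touch. E15 pool 1 stood apart from the other E15 pools, with a rank correlation of 0.976 and 0.980 with them, against 0.996 between E15 pools 2 and 3. That it held the extreme E15 value is remarked on for some genes, and not for every gene where it did.

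Of the 128 members, all of which passed the filter, 58 were called higher at E15 and 64 higher in adult, and 6 were not called. Of all genes tested, 34.7% were called higher at E15 and 29.3% higher in adult. Since the members carry a name only because they differed between the ages, nothing is read from that comparison. This also holds for the pathway and marker lists below, of which only named genes could be counted. More than a 2-fold difference was fitted for 44 of the called members at E15 and 38 in adult. The 3 pools of one age lay entirely above those of the other for 57 members at E15 and 66 in adult, against 38.0% and 32.1% of all genes. The median log2 fold change of the members was -0.55, against 0.14 over all genes tested and 0.73 over the 9958 named genes tested. Without E15 pool 1, 55 ubiquitin pathway genes were called higher at E15 and 57 in adult, compared with 56 and 58 with it. Scaled by total counts only, 58 were called higher at E15 and 28 in adult. The smallest fitted difference among called members was that of *Ube2l3* at -0.50 ± 0.13. Genes outside the named table carry no symbol in the files used here and are not described.

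**Figure D1:**
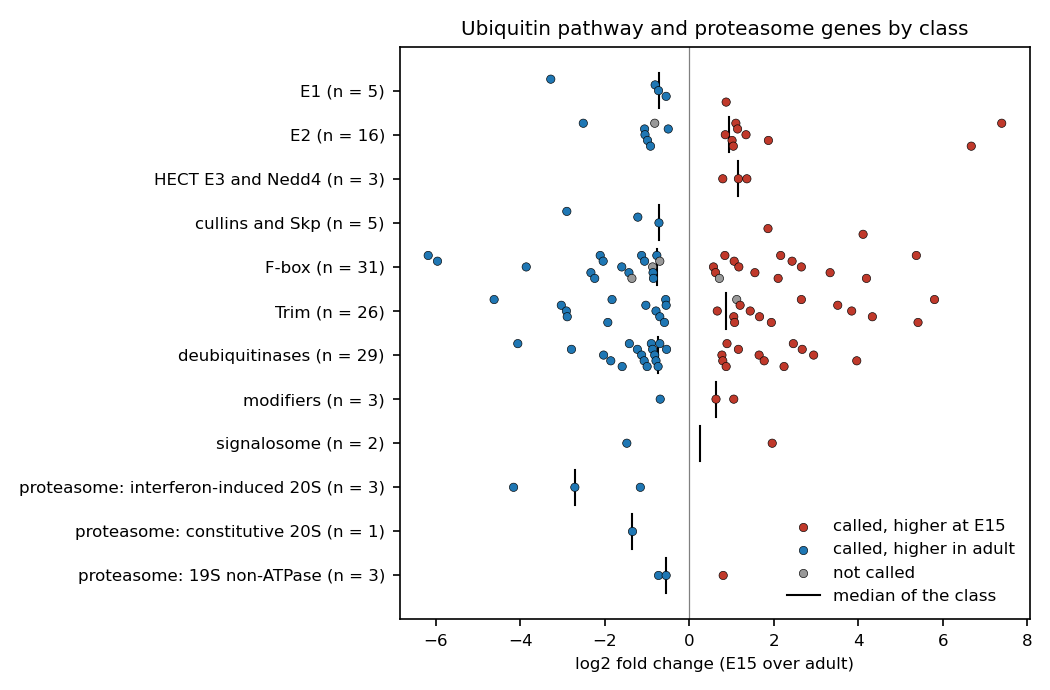
Log2 fold change (E15 over adult) of each ubiquitin pathway and proteasome gene, 1 point per gene, grouped by the class of enzyme or complex, with the median of each class as a bar. Members lie on both sides of 0 in every class of more than 3 genes, the class medians run from -2.71 for the interferon-induced 20S subunits to 1.16 for the HECT ligases with *Nedd4*, and the widest ranges are those of the E2, F-box and Trim genes.

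The proteasome subunits in the table were 4 of the 20S core and 3 of the 19S lid, and 6 of the 7 were called higher in adult. The 3 interferon-induced catalytic subunits, which replace the constitutive ones in the immunoproteasome, were all higher in adult. *Psmb9* had normalized counts of 18.8, 33.9 and 22.7 at E15 and 466, 451 and 442 in adult, a log2 fold change of -4.16 ± 0.24. *Psmb8* had 17.2, 31.6 and 37.6 at E15 and 157, 208 and 203 in adult (-2.71 ± 0.32). *Psmb10* had 118, 129 and 129 at E15 and 282, 291 and 271 in adult (-1.16 ± 0.17). In none of the 3 did the ages overlap, and their fold differences ran from 2.24 for *Psmb10* to 17.9 for *Psmb9*. Summed, the 3 genes had 154 to 195 normalized counts per E15 pool and 905 to 949 per adult pool.

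*Psmb1*, a non-catalytic subunit of the 20S beta ring, was the only constitutive core subunit in the table. It had 2471, 2695 and 2746 normalized counts at E15 and 7004, 6442 and 6693 in adult, a 2.55-fold difference (-1.35 ± 0.10). The lid subunits went in different directions. *Psmd3*, a structural lid subunit, had 2528, 3731 and 3782 at E15 and 1906, 1996 and 1846 in adult (0.80 ± 0.15), with E15 pool 1 the lowest of its age. *Psmd12*, another structural lid subunit, had 2188, 1762 and 1907 at E15 and 2863, 2749 and 2965 in adult (-0.55 ± 0.11). *Psmd14*, the deubiquitinase of the lid, had 1735, 1114 and 1413 at E15 and 2417, 2332 and 2316 in adult (-0.73 ± 0.15). The differences of *Psmd12* and *Psmd14* turned to 0.26 and 0.08 when the libraries were scaled by total counts only, whereas those of the other 5 subunits kept their direction. Under that scaling 3 subunits were called higher in adult. The 3 lid genes together had 6451 to 7102 normalized counts at E15 and 7077 to 7186 in adult, so that their sums overlapped.

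**Figure D2:**
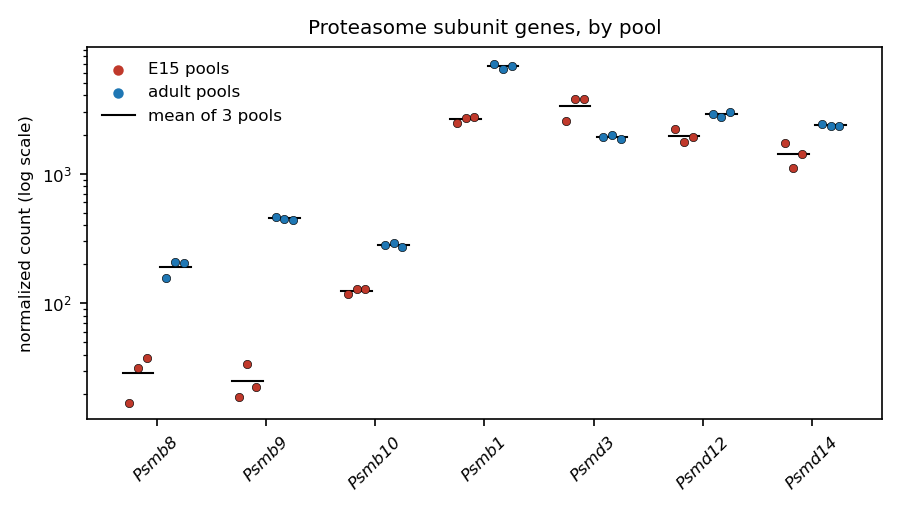
Normalized counts (log scale) of the 7 proteasome subunit genes in each pool, E15 in red and adult in blue, with the mean of the 3 pools as a bar. The pools of the 2 ages do not overlap for any of the 7 genes, the widest gap is that of *Psmb9*, and *Psmd3* is the only gene with the E15 pools above the adult pools.

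*Psmb5*, *Psmb6* and *Psmb7*, the constitutive counterparts of the interferon-induced subunits, were not among the named genes. Nor was any gene of the 20S alpha ring, of the 19S ATPases, of the assembly factors or of the proteasome activators, so the subunits above are a small part of the complex. *Usp14* and *Uchl5*, the deubiquitinases that bind the 19S particle reversibly, were higher in adult. *Usp14* had 2544, 1565 and 1872 normalized counts at E15 and 3711, 3406 and 4071 in adult (-0.90 ± 0.17). *Uchl5* had 518, 302 and 298 at E15 and 680, 608 and 644 in adult (-0.79 ± 0.21), a difference that came to 0.02 with total counts only. Of 17 listed proteasome partners, 3 were named. *Nfe2l1* and *Nfe2l2*, transcription factors of which the first is known to drive proteasome genes under stress, were higher in adult (-1.19 ± 0.10 and -1.59 ± 0.12), and *Ubqln4*, a shuttle between ubiquitinated proteins and the proteasome, was higher at E15 (0.84 ± 0.10).

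The interferon-induced subunits belonged to a list of 16 interferon-responsive genes of the pathway, of which 12 were named. Of these, 11 were called higher in adult, against 29.3% of all genes tested, and *Trim14* was not called. The 12 were named because they differed between the ages, so nothing is read from this count. Their summed normalized counts were 1091 to 1191 per E15 pool and 5804 to 6512 per adult pool. *Trim30*, a Trim family ligase of immune cells, had 9.0, 8.47 and 10.2 at E15 and 246, 200 and 243 in adult, a 24.6-fold difference (-4.62 ± 0.27). *Trim5*, a restriction factor against retroviruses, had 364, 280.3 and 287 at E15 and 2455, 2539 and 2612 in adult (-3.03 ± 0.13). *Trim21*, a cytosolic antibody receptor and ligase, had 105, 124 and 107 at E15 and 419, 374 and 489 in adult (-1.93 ± 0.18). The pools of the 2 ages did not overlap for any of these 3 Trim genes. *Trim25*, a ligase that acts on an RNA sensor, had 192, 313 and 276 at E15 and 350, 387 and 411 in adult (-0.56 ± 0.20). Its call was lost without E15 pool 3 (-0.60), adult pool 2 (-0.58) or adult pool 3 (-0.53), and its sign changed to 0.25 with total counts only. *Trim14*, an adaptor in antiviral signalling, had 28.7, 24.6 and 25.9 at E15 and 2.83, 24.7 and 8.24 in adult, and its pools overlapped.

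Markers of macrophages did not share one direction. Of 5 named, *Cd74*, *Cd14* and *Cx3cr1* were called higher in adult, *Csf1r* was called higher at E15 (1.18 ± 0.20), and *Ptprc* was not called. The call for *Cx3cr1* was lost without adult pool 2, at -0.92. Their sums ran from 1150 to 1355 normalized counts at E15 and from 2277 to 2555 in adult. *Cd74*, the invariant chain of antigen presentation, had 28.6, 28.5 and 22.7 at E15 and 1229, 1312 and 1387 in adult. The higher adult sum rested on this gene, since the other 4 markers summed to 1121, 1326 and 1148 in the E15 pools and to 1048, 1244 and 1059 in those of the adult. The part of these cells in the interferon-responsive group was not tested.

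Promoter sequences, 250 bases before to 50 after the annotated start, were given by RefSeq on the build GRCr8 for 99 members. They were searched on both strands for 2 copies of GAAA separated by 2 bases of any kind, a short form of the interferon-stimulated response element. It occurred in 3 of the 8 promoters of interferon-responsive members, those of *Psmb8*, *Psmb10* and *Trim21*, and in 3.77% of all 27457 promoters of that length. Among the 50 members with a higher adult value it occurred in 4, the fourth being *Ube2d3*, and in 0 of the 49 with a higher E15 value. TTCNNNGAA, the gamma-activated site, occurred in 1 of the 8 (*Psmb8*), in 8.68% of all promoters, in 4 of the 49 members with a higher E15 value and in 1 of the 50 with a higher adult value. TGACNNNGC, the antioxidant response core, occurred in 12.2% of all promoters, in 4 of the 49 and in 11 of the 50. The 100 bases before the start are shown for the 2 genes with more than 1 match, with the matches in capitals. *Psmb10* is at chr19:50743293-50743392 on the minus strand, and *Trim21* at chr1:166399372-166399471 on the minus strand, where its 2 matches overlap.
Psmb10: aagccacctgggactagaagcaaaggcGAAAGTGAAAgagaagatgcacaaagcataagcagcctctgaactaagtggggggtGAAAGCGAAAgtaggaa
Trim21: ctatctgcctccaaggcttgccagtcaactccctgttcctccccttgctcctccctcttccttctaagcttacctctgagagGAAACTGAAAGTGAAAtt
In *Psmb10* the matches lay 73 to 64 and 17 to 8 bases before the start, and in *Trim21* they lay 18 to 9 and 12 to 3 bases before it. A match of letters is not evidence of binding. The 2 genes differed between the ages in the same direction, by 2.24-fold and 3.81-fold.

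Of 5 E1 genes, 4 were called higher in adult and 1 at E15, and 2 of the 5 changed sign with total counts only. *Uba7*, the E1 of ISG15, had 72.0, 77.0 and 68.2 normalized counts at E15 and 721, 593 and 806 in adult, a 9.74-fold difference (-3.28 ± 0.17). *Uba6*, which activates ubiquitin itself, had 1668, 916 and 994 at E15 and 1958, 2039 and 2269 in adult (-0.81 ± 0.21), with E15 pool 1 nearest to the adult values. The difference of *Uba6* came to -0.0 with total counts only. *Uba3*, the catalytic subunit of the NEDD8 E1, had 1281, 745 and 760 at E15 and 1511, 1549 and 1547 in adult (-0.73 ± 0.20), which became 0.08 with total counts only. *Uba2*, the catalytic subunit of the SUMO E1, went the other way, with 1637, 1489 and 1381 at E15 and 814, 766 and 893 in adult (0.87 ± 0.12).

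Grouped by modifier, a grouping made after the values were seen, the genes described for each route mostly shared one direction. All 4 named genes of the ISG15 route were called higher in adult and kept that direction under the 4 other scalings tried. They were *Isg15* itself, with 81.8, 66.2 and 62.7 normalized counts at E15 and 279, 232 and 435 in adult (-2.17 ± 0.27), *Uba7*, the E2 *Ube2l6* and the ISG15 protease *Usp18*. *Ube2l6* had 83.5, 95.5 and 80.8 at E15 and 513, 471 and 500 in adult (-2.51 ± 0.16). *Usp18* had 1.64, 6.93 and 2.35 at E15 and 65.1, 33.8 and 90.7 in adult (-4.06 ± 0.61), and the value was -4.89 without E15 pool 2. In the UFM1 route, *Ufm1* was higher in adult (-1.69 ± 0.16), as was its E2 *Ufc1* (-0.86 ± 0.11). With total counts only, *Ufm1* came to -0.88 and *Ufc1* to -0.05. In the NEDD8 route, *Nae1* and *Uba3* were called higher in adult and *Dcun1d1* was not called. *Uba3* and *Dcun1d1* changed sign with total counts only, to 0.08 and 0.14, and *Nae1* came to -0.02.

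Of 7 genes of the SUMO route described here, 5 were called higher at E15 and 1 in adult. *Sumo2* had 1014, 1189 and 1140 normalized counts at E15 and 565, 518 and 527 in adult (1.05 ± 0.12). The SUMO protease *Senp1* had 384, 487 and 442 at E15 and 109, 110.4 and 133 in adult (1.90 ± 0.17). The ligase *Pias4* and the protease *Senp3* were also called higher at E15 (1.38 ± 0.20 and 0.57 ± 0.12), and *Senp5* was not called. *Sumo3* was the exception, with 2763, 2425 and 2368 at E15 and 4013, 4044 and 4166 in adult (-0.69 ± 0.10), which became 0.11 with total counts only.

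**Figure D3:**
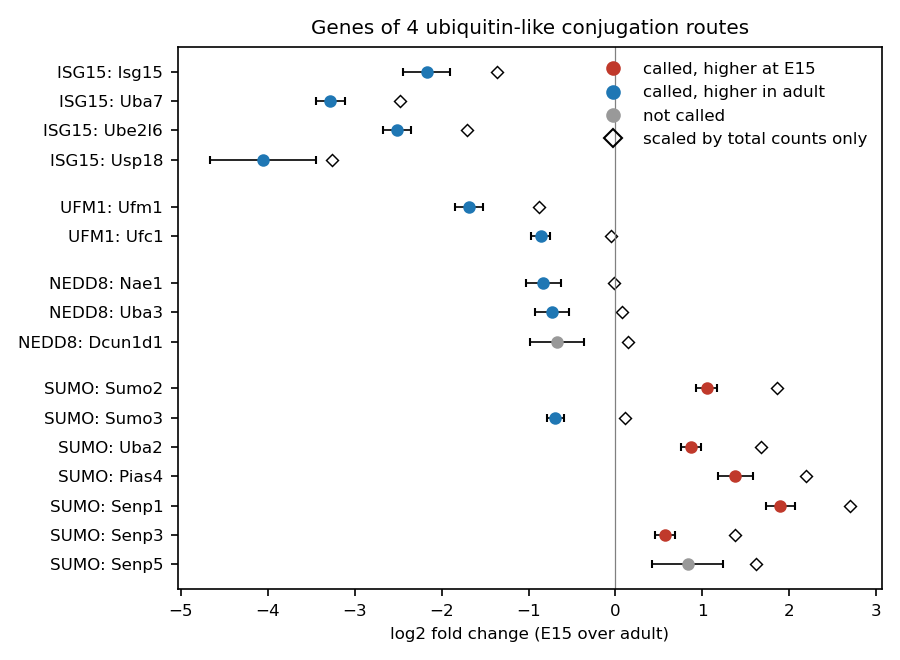
Log2 fold change (E15 over adult, points, with bars for the standard error of the fit) of genes of the ISG15, UFM1, NEDD8 and SUMO routes, and the same value scaled by total counts only (diamonds). The 4 ISG15 genes stay left of 0 under both scalings, *Uba3*, *Dcun1d1* and *Sumo3* cross 0, and the 5 called SUMO genes to the right of 0 stay there.

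Among the 16 E2 genes, 9 were called higher at E15, 6 in adult and 1, *Ube2q2l*, was not called. The largest differences of all members were those of *Ube2c*, the E2 that starts chains for the anaphase-promoting complex, and *Ube2t*, the E2 of the Fanconi anemia repair pathway. *Ube2c* had 558, 437 and 442 normalized counts at E15 and 2.83, 1.30 and 4.12 in adult, a 168-fold difference (7.39 ± 0.32). *Ube2t* had 275, 218 and 236 at E15 and 1.42, 1.30 and 4.12 in adult (6.67 ± 0.38), and the value was 7.34 without adult pool 3. The adult values of both genes came from at most 3 counts per pool, so the size of these ratios is imprecise. *Ube2s*, which extends the chains begun by *Ube2c*, differed by much less, with 1160, 1530 and 1575 at E15 and 692, 780.4 and 641 in adult (1.01 ± 0.15).

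Other E2 genes higher at E15 were *Ube2o* (1.34 ± 0.15), *Ube2e3* (1.14 ± 0.14), *Ube2d1* (1.04 ± 0.30), *Ube2g2* (0.85 ± 0.15) and *Ube2ql1* (1.87 ± 0.47). *Ube2ql1* had 18.4, 61.03 and 15.1 normalized counts in the adult pools, and its difference was 2.75 without adult pool 2. The call for *Ube2d1* was lost without adult pool 2, at 0.94. The E2 genes higher in adult, apart from *Ube2l6*, included the DNA repair pair *Ube2a* (-1.05 ± 0.19) and *Ube2b* (-0.92 ± 0.15), *Ube2v2*, a partner without catalytic activity (-0.99 ± 0.27), and *Ube2l3* (-0.50 ± 0.13). *Ube2d3*, an E2 used by many ligases and the one with the most counts of the class, had 10370, 5456 and 5987 normalized counts at E15 and 14960, 14810 and 15630 in adult (-1.06 ± 0.22). For *Ube2a*, *Ube2b*, *Ube2d3*, *Ube2l3* and *Ube2v2* alike, E15 pool 1 was the highest E15 pool, and it still lay below every adult pool. *Ube2l3* changed sign with total counts only, to 0.30.

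*Ube2c* and *Ube2t*, the members with the widest separation toward E15, belonged to a list of ubiquitin genes of cell division. Of 12 listed ubiquitin genes of cell division 8 were named, and 7 of these were called higher at E15, against 34.7% of all genes tested. Naming depended on the same contrast, so nothing is read from this count. *Skp2*, the F-box protein that targets the cell cycle inhibitor p27, had 2085, 1459 and 1523 at E15 and 115, 89.6 and 89.3 in adult, a 17.3-fold difference (4.11 ± 0.19). *Trim59*, a Trim ligase held in membranes, had 1815, 769 and 991 at E15 and 76.5, 101 and 71.4 in adult (3.84 ± 0.34). *Fbxo5*, an inhibitor of the anaphase-promoting complex, had 654, 338 and 362 at E15 and 29.7, 66.2 and 37.1 in adult (3.33 ± 0.36). E15 pool 1 was the highest pool for all 3 genes, and the ages did not overlap. *Cdc20*, a co-activator of the anaphase-promoting complex that lies outside the 128 members, had 2246, 2447 and 2777 at E15 and 53.8, 31.2 and 45.3 in adult, a 57.4-fold difference.

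*Usp1*, the deubiquitinase that reverses the reaction catalysed with *Ube2t*, went against the rest of the list. It had 3287, 1777 and 2029 normalized counts at E15 and 4105, 4103 and 4322 in adult (-0.82 ± 0.20), and -0.02 with total counts only. The core subunits of the anaphase-promoting complex differed far less than *Cdc20* and *Ube2c*. *Cdc16*, *Anapc7* and *Anapc2* were higher at E15 by 1.89-fold, 1.68-fold and 1.51-fold, and *Anapc13* was higher in adult by 1.47-fold, a log2 difference of -0.55 that became 0.25 with total counts only. The second co-activator, *Fzr1*, which acts on exit from mitosis, was higher at E15 by 3.27-fold. Of 18 listed proliferation markers 12 were named, and all 12 were called higher at E15, against 34.7% of all genes tested. Having a name already required a difference between the ages, so nothing is read from this count. Their sums were 18040 to 20770 normalized counts at E15 and 469 to 606 in adult. The part of the number of dividing cells in these differences was not tested.

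**Figure D4:**
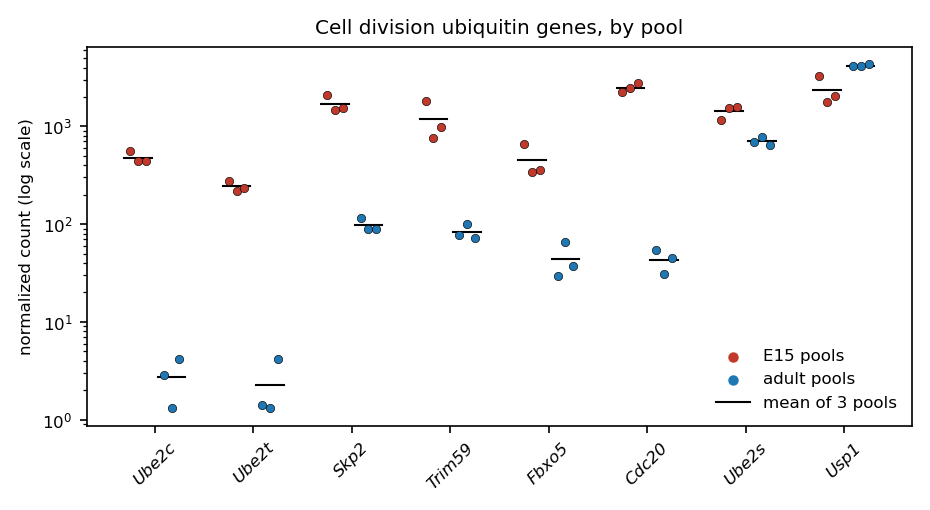
Normalized counts (log scale) of 8 ubiquitin genes of cell division in each pool, E15 in red and adult in blue, with the mean of the 3 pools as a bar. *Ube2c* and *Ube2t* lie below 5 in every adult pool, *Ube2s* differs by 2.02-fold, and *Usp1* is the only gene with the adult pools on top.

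Of 6 cell division members with a RefSeq promoter, 4 held CCAAT, the box recognised by NF-Y and common in cell cycle promoters, on either strand. These were *Ube2t*, *Fbxo5*, *Ube2s* and *Trim59*. The same letters occurred in 37.7% of all promoters of the table and in 18 of 49 members with a higher E15 value. TTTGAA, a form of the cell cycle homology region, occurred in 1 of the 6 (*Fbxo5*) and in 18.1% of all promoters, and its variant TTCGAA in 1 (*Ube2s*) and in 1.77%. The promoters of *Ube2t* (chr13:48955066-48955165, plus strand) and *Fbxo5* (chr1:44607782-44607881, minus strand) are shown for the 100 bases before the start because they held more than 1 box. Capitals mark CCAAT, or ATTGG where the box is on the other strand.
Ube2t: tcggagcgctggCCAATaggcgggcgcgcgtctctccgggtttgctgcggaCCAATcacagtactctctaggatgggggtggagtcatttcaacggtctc
Fbxo5: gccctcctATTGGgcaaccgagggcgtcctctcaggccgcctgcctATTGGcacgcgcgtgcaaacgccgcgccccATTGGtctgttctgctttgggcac
The boxes lay 88 to 84 and 49 to 45 bases before the start in *Ube2t*, and 92 to 88, 54 to 50 and 24 to 20 bases before it in *Fbxo5*. *Ube2s* and *Trim59* held 1 box each, farther from the start than the sequence shown for the other 2.

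The cullins, scaffolds of multi-subunit ligases, were divided. *Cul4b*, the scaffold of ligases that act in DNA repair and chromatin, had 3153, 1657 and 1782 normalized counts at E15 and 15350, 16890 and 16980 in adult, a 7.47-fold difference (-2.90 ± 0.23). *Cul3* was higher in adult by 1.65-fold, and its log2 difference turned from -0.72 to 0.09 with total counts only. *Skp1*, the adaptor that joins F-box proteins to the cullin, had 11170, 7079 and 7985 at E15 and 20410, 19900 and 20940 in adult (-1.22 ± 0.16). *Cul7*, a cullin that works with the F-box protein Fbxw8, had 3471, 5034 and 4677 at E15 and 1300, 1261 and 1082 in adult (1.86 ± 0.15). *Fbxw8* itself was also higher at E15, with 684, 997 and 1051 against 421, 465 and 427 (1.06 ± 0.17). Of the 12 listed cullin partners 4 were named, with *Cand2* higher at E15 (1.76 ± 0.18), *Tceb1* and *Nae1* higher in adult, and *Dcun1d1* not called. *Tceb1* had 917, 203 and 226 normalized counts at E15 and 991, 1138 and 1078 in adult (-1.25 ± 0.49). Its value was -2.32 without E15 pool 1, and its call was lost without any 1 of the other 5 pools, at -1.33 to -0.91. The signalosome, which removes NEDD8 from cullins, had 1 named subunit on each side. *Cops7b* was higher at E15, with 300, 320 and 311 against 70.8, 88.3 and 79.7 (1.96 ± 0.18). *Cops2* was higher in adult, with 3311, 2239 and 2346 at E15 and 7371, 7111 and 7487 in adult (-1.48 ± 0.15).

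The F-box genes, the substrate receptors of cullin ligases, numbered 31, of which 13 were called higher at E15, 14 in adult and 4 were not called. The largest adult-side differences were in *Fbxo2* and *Fbxo44*, both of the subfamily that binds glycoproteins, and adjacent in the gene order of GRCr8 on chromosome 5. *Fbxo2* had 0.819, 9.24 and 6.27 normalized counts at E15 and 433, 467 and 323 in adult, a 72.4-fold difference (-6.18 ± 0.44), and the value was -6.78 without E15 pool 2. *Fbxo44* had 21.3, 50.05 and 47.8 at E15 and 627, 588 and 523 in adult (-3.86 ± 0.28). Whether reads of one were counted for the other was not tested. *Fbxl5*, the iron-sensing receptor that targets iron regulatory proteins, had 2167, 1843 and 1830 at E15 and 7779, 7592 and 8570 in adult (-2.04 ± 0.11). *Fbxo33* (-2.33 ± 0.14), *Fbxo8* (-2.24 ± 0.16) and *Fbxo4* (-2.11 ± 0.27) were also more than 4-fold higher in adult. Smaller adult-side differences were those of *Fbxo9*, *Fbxo25*, *Fbxo22*, *Fbxo3*, *Fbxw11*, *Fbxw10* and *Fbxl17*, from -1.60 to -0.77, and *Fbxl17* came to 0.04 with total counts only.

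*Fbxo39* was not detected at E15, with 0 counts in each pool against 2, 6 and 9 in adult. Set against the 3 counts that a total of 0 still allows over the E15 pools, this is at least 9.76-fold higher in adult. On the E15 side, *Fbxl7* had 311, 354 and 332 normalized counts at E15 and 16.99, 32.5 and 4.12 in adult, an 18.3-fold difference (4.19 ± 0.44), with 4.94 without adult pool 2. *Fbxl19*, a receptor linked to chromatin, had 947, 1263 and 1143 at E15 and 286, 231 and 231 in adult (2.16 ± 0.16). *Fbxo36* had 113, 102 and 106 at E15 and 18.4, 32.5 and 8.24 in adult (2.43 ± 0.41). *Fbxl18* (2.65 ± 0.51) and *Fbxw9* (2.10 ± 0.25) were also higher at E15 by more than 4-fold. *Fbxo48* had 9, 5 and 5 counts at E15 and 0 in each adult pool, at least 3.68-fold higher at E15. Fitted values of 0.57 to 1.55 were found for *Fbxw4*, *Fbxo21*, *Fbxo43*, *Fbxl12* and *Fbxo31*. *Fbxo31* had 36.0, 150 and 134 normalized counts at E15 and 22.65, 50.6 and 35.7 in adult. Its pools overlapped through E15 pool 1, the lowest of its age. *Fbxo39* without adult pool 3 and *Fbxo48* without E15 pool 1 fell under the filter of 10 counts. The calls for *Fbxw10* and *Fbxo43* were each lost without any 1 pool except adult pool 2, at -0.95 to -0.71 and 0.63 to 0.86. That for *Fbxw4* was lost without any 1 pool except E15 pool 1, at 0.41 to 0.56, and that for *Fbxo31* without E15 pool 2 or 3 or adult pool 1 or 3, at 1.22 to 1.5. The F-box genes not called were *Fbxl14*, *Fbxl16*, *Fbxl22* and *Fbxo32*. *Fbxo32*, the ligase of muscle atrophy, had 4.09, 18.5 and 11.8 at E15 and 21.2, 44.2 and 23.4 in adult, and was not called. Of 5 named skeletal muscle markers, *Tnnt3*, *Myog* and *Des* were called higher at E15 and *Actn2* and *Mylpf* in adult. Their sums were 152 to 203 at E15 and 216 to 225 in adult, but without *Actn2* they were 151 to 198 and 80.7 to 127.

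*Nedd4*, a HECT ligase that controls endocytosis of membrane proteins, had the most counts of all members. It had 55510, 50710 and 50970 normalized counts at E15 and 21770, 24120 and 24410 in adult, a 2.24-fold difference (1.16 ± 0.10). It made up 25.2% to 26.2% of the counts of all members at E15 and 8.65% to 9.44% in adult. Its relative *Nedd4l*, which acts on the epithelial sodium channel, had 967, 803 and 896 at E15 and 572, 465 and 500 in adult (0.79 ± 0.13). *Ube2cbp*, named Ube3d in later annotation, was higher at E15 as well (1.36 ± 0.22). Of the other ligases, which the prefix rule left out, 11 of 28 listed were named, 5 higher at E15 and 6 in adult. *Wwp1*, another HECT ligase, was higher in adult by 3.87-fold, and *Mdm2*, the ligase of p53, by 2.04-fold, whereas its partner *Mdm4* was higher at E15 by 1.54-fold. The log2 difference of *Mdm4*, 0.63, lost its call without adult pool 1 (0.61) or adult pool 2 (0.51). *Xiap*, *Birc2*, *Syvn1* and *Ube4a*, the other 4 ligases higher in adult, had values of -0.77 to -0.58 that became 0.04 to 0.22 with total counts only.

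Of 26 Trim genes, 13 were called higher at E15, 12 in adult and *Trim14* was not called. *Trim28*, a corepressor bound by KRAB zinc finger proteins, had 7148, 9102 and 8877 normalized counts at E15 and 2141, 2232 and 2162 in adult (1.94 ± 0.12). *Trim44* (1.66 ± 0.12), *Trim24* (1.07 ± 0.12) and *Trim27* (1.05 ± 0.14) were also higher at E15. *Trim47* had 72.0, 205 and 183 at E15 and 16.99, 35.1 and 20.6 in adult (2.65 ± 0.46), and its neighbour on chromosome 10, *Trim65*, was higher at E15 as well (1.20 ± 0.28). *Trim45* and *Trim36* were higher at E15 (0.66 ± 0.21 and 1.44 ± 0.43). The call for *Trim45* was lost without adult pool 1, adult pool 2 or E15 pool 3, at 0.54 to 0.64, and that for *Trim36* without adult pool 3 or E15 pool 3, at 1.20 and 1.14. On the adult side, beside the interferon-responsive genes, *Trim7* had 16.4, 25.4 and 19.6 at E15 and 142, 183 and 133 in adult (-2.89 ± 0.29). *Trim16* (-1.83 ± 0.27), *Trim37* (-0.79 ± 0.10), *Trim8* (-0.59 ± 0.12) and *Trim75* (-2.91 ± 0.98) were higher in adult. *Trim75* had 0.00, 0.77 and 3.92 at E15 and 5.66, 11.7 and 20.6 in adult, its value was -4.60 without E15 pool 3, and its call was lost without E15 pool 2 (-2.60) or adult pool 3 (-2.41). *Trim37* and *Trim8* came to 0.01 and 0.21 with total counts only.

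*Trim5* and *Trim6*, closely related genes with 1 gene between them on chromosome 1, went in opposite directions. *Trim6* had 23, 27 and 14 counts at E15 and 3, 0 and 0 in adult, a ratio of 12.4 with a 95% counting interval of 4.05 to 61.7. The fitted difference was 11.4-fold, and it was 143-fold without adult pool 1, the only adult pool with a count, and 7.49-fold without adult pool 2. Reads that fitted more than 1 place had been discarded, so genes with near-identical copies may be undercounted.

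Of 4 named genes of a red cell list, *Trim10*, *Trim58* and *Ube2o* were called higher at E15, and *Ube2l6*, the E2 of ISG15 described above, was 5.70-fold higher in adult. *Trim10* and *Trim58*, ligases of red cell formation, had at most 5 counts in any adult pool. *Trim10* had 99.0, 96.3 and 59.6 normalized counts at E15 and 7.08, 0.00 and 5.49 in adult (4.33 ± 0.62), with 3.70 without adult pool 2. *Trim58*, which acts on dynein in late erythroblasts, had 26.2, 137 and 82.3 at E15 and 0.00, 5.19 and 0.00 in adult (5.41 ± 0.97). Its value was 9.41 without adult pool 2, the only adult pool with a count, and 4.82 without E15 pool 2. *Ube2o*, an E2 that clears ribosomal proteins in reticulocytes, had 2139, 3235 and 3004 at E15 and 1096, 1093 and 1126 in adult. Of 9 listed erythroid markers 5 were named, all called higher at E15, against 34.7% of all genes tested. Their sums were 6531 to 8411 normalized counts at E15 and 125 to 244 in adult, and *Gata1* was at 0 in each adult pool. The part of blood cells in these differences was not tested.

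Of 7 named genes of a neuron-rich list, 2 were called higher at E15, 4 in adult, and *Fbxl16* was not called. The largest fitted difference of the 7 was that of *Fbxo2*, described above, which was 72.4-fold higher in adult (-6.18 ± 0.44). *Uchl1*, the abundant deubiquitinase of neurons, had 2020, 2202 and 2226 at E15 and 62.3, 255 and 94.8 in adult, a 15.5-fold difference (3.96 ± 0.41). Without adult pool 2, the highest of the adult pools, its value was 4.73. *Trim67*, a brain-rich Trim ligase, had 6, 8 and 12 counts at E15 and 0 in each adult pool, at least 5.03-fold higher at E15. Its relative *Trim9* had 291, 291 and 380.3 normalized counts at E15 and 463, 480.5 and 463 in adult (-0.55 ± 0.15). *Trim2* had 7558, 4882 and 5223 at E15 and 10780, 12540 and 12690 in adult (-1.03 ± 0.17), and *Trim3* had 267, 469 and 373 against 664, 586 and 547 (-0.70 ± 0.20). The differences of *Trim9* and *Trim3* became 0.26 and 0.11 with total counts only. Of 9 markers of developing neurons, 8 were called higher at E15 and *Gap43* was not called. The pools of the ages overlapped for *Gap43* and *Stmn2*. The call for *Stmn2* was lost without adult pool 1 (1.83) or adult pool 3 (1.8). The 9 markers summed to 5049, 1798 and 3894 at E15 and 142, 712 and 183 in adult, in the order of the pools. Adult pool 2 was the highest adult pool both for these markers and for *Uchl1*, whereas *Uchl1* was nearly level across the E15 pools. The part of neural cells in the difference of *Uchl1* was not tested.

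**Figure D5:**
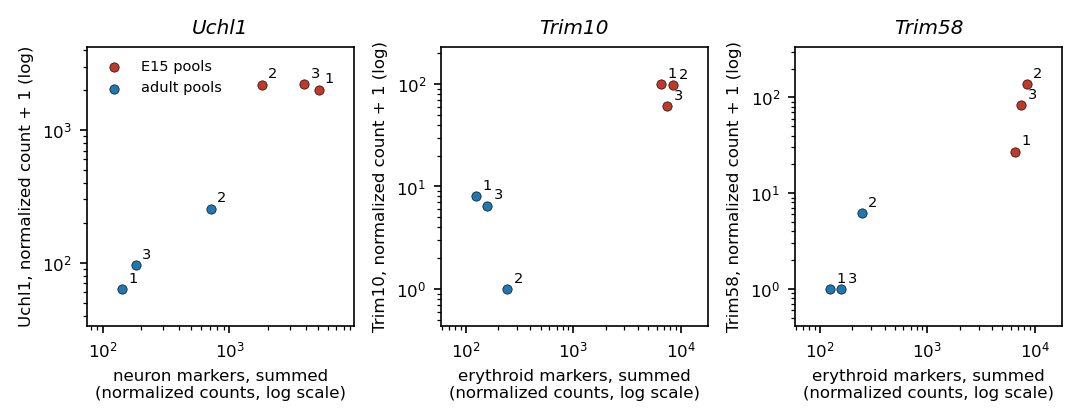
Normalized counts of *Uchl1*, *Trim10* and *Trim58* (log scale, 1 added) in each pool against the summed normalized counts of developing neuron or erythroid markers (log scale), with the pool number beside each point. E15 pools (red) lie above and to the right of the adult pools (blue) in each panel, and adult pool 2 is the highest adult pool for *Uchl1* and *Trim58* and the lowest for *Trim10*.

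All 29 deubiquitinases were called, 12 higher at E15 and 17 in adult, and none had overlapping pools. Of all genes tested, 64.0% were called, and the pools did not overlap for 38.0% (higher at E15) and 32.1% (higher in adult). The members were named only because they had been called, so nothing is read from these counts. The largest adult-side difference after *Usp18* was that of *Usp25*, which had 1480, 1082 and 1103 normalized counts at E15 and 8134, 8175 and 8992 in adult (-2.79 ± 0.14). *Usp33*, which acts on receptors and centrosome proteins, had 2374, 1593 and 1748 at E15 and 8014, 7428 and 7922 in adult (-2.03 ± 0.15). *Usp2*, a deubiquitinase of the circadian clock, had 316, 452 and 463 at E15 and 1502, 1382 and 1584 in adult (-1.86 ± 0.16). *Usp32* was higher in adult by 3.01-fold and *Usp8*, which acts on receptors at endosomes, by 2.10-fold. *Usp20*, *Usp53*, *Otud1* and *Otud6b* were higher in adult at -1.42 to -0.87. *Otub2*, *Otud7b* and *Usp30*, the last a deubiquitinase of mitochondria, had values of -0.70, -0.74 and -0.54 that turned to 0.10, 0.07 and 0.27 with total counts only.

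On the E15 side, the chromatin-directed enzymes *Usp22*, *Usp49* and *Usp21* were higher. *Usp49* had 372, 398 and 340.4 normalized counts at E15 and 82.1, 57.1 and 63.2 in adult (2.46 ± 0.20). *Usp21* had 243, 484 and 445 at E15 and 60.9, 94.8 and 92.0 in adult (2.24 ± 0.30), and *Usp22*, of the SAGA complex, had 1409, 1916 and 2059 against 547, 649 and 525 (1.65 ± 0.16). *Usp16*, which acts on histone H2A, was on the adult side (-1.13 ± 0.15). *Usp11* had 3353, 3760 and 3828 at E15 and 1062, 1021 and 1128 in adult (1.77 ± 0.11). *Usp42* (1.16 ± 0.11), *Usp5*, which disassembles free ubiquitin chains (0.89 ± 0.12), *Otub1* (0.87 ± 0.13), *Usp28* (0.77 ± 0.14) and *Usp27x* (0.79 ± 0.31) were higher at E15. The call for *Usp27x* was lost without adult pool 2 or 3 or E15 pool 2 or 3, at 0.52 to 0.85. *Usp43_predicted* (2.94 ± 0.43) and *Otud7a* (2.67 ± 0.76) had few adult counts, and *Otud7a* came to 3.70 without adult pool 2 and 2.08 without adult pool 3. Of 16 other listed deubiquitinases and SUMO proteases, 5 were named, with *Bap1* higher at E15 by 1.63-fold and *Stambp* higher in adult by 1.58-fold. The log2 difference of *Stambp*, -0.66, became 0.15 with total counts only, and its call was lost without adult pool 1 (-0.53) or E15 pool 3 (-0.58).

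The spread between pools of one age is not computed from the age contrast, but the members were chosen by that contrast. Among 98 members with a mean above 100 raw counts over the 6 libraries, the median SD of the log2 values was 0.225 over the E15 pools and 0.0952 over the adult pools, against 0.196 and 0.121 for the 11067 genes at such levels. For the 7 proteasome subunits it was 0.32 at E15 and 0.0547 in adult. E15 pool 1 was the highest E15 pool for 34 of the 55 members with higher adult values, or 61.8%, and the lowest for 26 of the 43 with higher E15 values, or 60.5%. The same shares over all genes at such levels were 51.7% and 54.7%. This split by direction used the age contrast, with E15 pool 1 part of it. The largest departures of E15 pool 1 from the mean of the other E15 pools, on the log2 scale, were -2.62 for *Fbxo2* and 1.09 for *Ube2v2*. As a share of all gene counts, the members took 1.33% to 1.5% at E15 and 0.96% to 1.04% in adult. On the normalized scale the members summed to 193900 to 220200 counts at E15 and 251700 to 262700 in adult, so the order of the ages depended on the scale. Of 10 listed markers of the choroid plexus epithelium 8 were named, all called higher in adult, against 29.3% of all genes tested. They summed to 474700 to 568000 normalized counts at E15 and 4136000 to 5067000 in adult. Most of this sum was *Ttr*, with 389700, 466800 and 480700 at E15 and 4585000, 3761000 and 3640000 in adult. The part of these markers in the difference between the 2 scales was not tested. Of 8 listed markers of endothelium 7 were named, all called higher at E15. All 7 listed markers of mesenchyme were named, with 5 called higher at E15 and 2 in adult. Of 4 named oligodendrocyte markers 3 were called higher in adult, with sums of 5935, 2019 and 801 in the 3 adult pools.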

How the data were processed

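Whole lateral ventricular choroid plexus of E15 and adult rats was sequenced as 3 pools per age on an Illumina platform. Per the methods, the authors trimmed the reads, mapped them with Bowtie 0.12.7 to the Ensembl release 61 rat genome, dropped reads without a unique place, and deposited HTSeq 0.4.7p4 union counts per gene. No use of strand is stated. Their second deposited table holds log2 abundance, log2 fold change, p-value and adjusted p-value of their own edgeR 2.4.0 exact test for 10653 genes. Only its gene symbols were used, and its values were neither used nor compared. All per-sample columns were used, and samples were grouped by their titles.

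Counts of 16643 genes with more than 10 reads over the 6 libraries were fitted with edgeR 4.0.16 (R 4.3.3, TMM, quasi-likelihood F test, age as the only term, Benjamini-Hochberg over all genes tested), after the steps had been tested on simulated data. Standard errors are the log2 fold change divided by the square root of F. Spreads are SDs of log2 normalized count plus 0.5. A total of 0 over an age was read as at most 3 counts, and the ratio of *Trim6* has an exact 95% conditional interval, both covering counting error only. With 3 pools per age, p-values weigh the difference between the ages against the spread between pools, not between single animals. Alternatives were RLE, upper quartile and total-count scaling, total counts without the 10 highest genes, other filters, DESeq2 1.42.0, an exact test with a common dispersion of 0.0332, a replicate block, and leaving out each pool.

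The members, the gene and marker lists and the alternatives were chosen with earlier results of these data known. Genes to name were the interferon-induced subunits, the largest differences in each class, the 12 ubiquitin genes farthest in each direction with a mean above 100 at the higher age, the highest counts of each class and the listed genes. The other members are named so that each is accounted for, except 3 that are counted but not reported here by name. Symbols of 125 members were found in RefSeq (GRCr8), 99 of them with a promoter. Its tables gave only promoters and gene order.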

Additional observations from a re-analysis of the deposited data

How the results depend on the processing

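Scaling was the choice that moved the results. With total counts only, 3 proteasome subunits were called higher in adult instead of 6 and their median log2 fold change was -0.36 instead of -1.16, while 28 ubiquitin pathway genes were called higher in adult instead of 58 and their median was 0.26 instead of -0.54. The medians of the proteasome and ubiquitin genes were -0.70 and -0.08 with the 10 highest genes left out of the totals, and -1.04 and -0.42 with upper quartile factors. By construction, scaling by totals shifts every gene toward E15 by nearly the same amount. It turned the direction of 17 of the 125 members reported one by one, to values of 0.09 for *Cul3*, 0.10 for *Fbxl16*, 0.04 for *Fbxl17*, 0.10 for *Otub2*, 0.07 for *Otud7b*, 0.26 for *Psmd12*, 0.08 for *Psmd14*, 0.11 for *Sumo3*, 0.25 for *Trim25*, 0.11 for *Trim3*, 0.01 for *Trim37*, 0.21 for *Trim8*, 0.26 for *Trim9*, 0.08 for *Uba3*, 0.30 for *Ube2l3*, 0.02 for *Uchl5* and 0.27 for *Usp30*. No other alternative turned the direction of a member.

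Leaving out each pool in turn gave 50 to 55 ubiquitin pathway genes higher at E15, 55 to 58 higher in adult and medians of -0.57 to -0.49. The proteasome counts stayed at 1 and 6, with medians of -1.22 to -1.13. Of 122 called members, 110 stayed tested and called with any 1 pool left out. The exact test with a common dispersion called the 6 members that the main test did not. The authors had chosen the named genes with a test of that kind, so this outcome was fixed in advance. Over all genes, total counts only gave 9799 genes higher at E15 and 2292 in adult, against 5773 and 4879.

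Pools with the same number did not deviate together (correlations of -0.03985, 0.04258 and -0.133 over 11067 genes), so the numbers are not a pairing. A fit with the replicate block called 53 ubiquitin pathway genes higher at E15 and 57 in adult and 1 and 6 proteasome subunits, with medians of -0.54 and -1.17, and *Fbxo43*, *Fbxo48*, *Fbxw10* and *Usp27x* were not called. The planned counts over every proteasome subunit by name were not run, since the tables used here do not pair Ensembl identifiers with symbols for uncalled genes. Genes with under 10 counts in a group, such as *Fbxo39*, *Fbxo48* and *Trim67*, are limited by depth.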
